A study of Mus musculus with 8 samples.

Results

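The insulin-like growth factor axis was followed through 3 genes, Igf2, Igfbp5 and Irs2, in sorted fractions of mouse Hex-IRES-Venus (HV) ES cells, a line that the labels call HIV. These members stand for the ligand, a binding protein and an adaptor, and were chosen by symbol from a table of the study that pairs array probes with genes. Each had 1 probe, out of 1998 named probes used and 29484 probes tested, and 6 further genes of the axis that the table names are described after them. That table holds genes selected for differences among these same arrays, so the members' changes describe the fractions and are no independent evidence that the axis responds.

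RNA came from 4 sorted fractions of each of 2 clones, 5.1 and 16.1, giving 8 samples with 1 sample of each fraction per clone. V stands for Venus, a fluorescent protein read from an internal ribosome entry site behind a tagged Hex cDNA at the Hex locus, and S for SSEA-1, a surface carbohydrate of undifferentiated ES cells, so that the fractions are V-S+ and V+S+ with the antigen, and V-S- and V+S- without it. Every sample carried the same knock-in on the 129/Ola strain in a parental line that expresses the BirA ligase, was grown with LIF for 24 h, and was set apart by clone and sorting gate, so no fraction lacks the reporter. Venus marks transcription at the Hex locus, each line is a single clone, and all 4 fractions of a clone lay on 1 slide, so a difference between clones cannot be told apart from one between slides. The lists in the sample descriptions name the V-S+ fraction where the titles name V+S-. The titles and source names were followed.

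Igf2 encodes a secreted growth factor that is expressed from the paternal allele and acts through the type 1 IGF receptor and the insulin receptor. Igfbp5 encodes a secreted protein that binds IGFs and also attaches to extracellular matrix, and can either hold IGFs away from their receptors or keep them near the cell. Irs2 encodes a cytoplasmic docking protein that receptors of this family phosphorylate and that recruits PI3-kinase. The members therefore stand at successive steps: ligand, carrier and intracellular adaptor. In the early embryo, Igf2 is abundant in extra-embryonic tissues.

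In GRCm38.p6, Igf2 lies at chr7:142650768-142666816, Igfbp5 at chr1:72858065-72874865 and Irs2 at chr8:10984681-11008929, all on the minus strand. Each value below came from 1 probe of 60 bases, spotted once. The first 30 bases of each probe, as the scanner files give them, are shown because they are what the array measured, with no base in capitals.
Igf2 probe: aacatgcattttctggcaaaatcaaagctt
Igfbp5 probe: attactgtagctctctatagtgttacgttc
Irs2 probe: tggagctttgccctctgccagcacctatgc
The GC content of the whole probe was 38.3% for Igf2, 40.0% for Igfbp5 and 53.3% for Irs2. The part of the transcript that each probe meets was not mapped here.

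The 250 bases before the RefSeq start of each gene are shown because the members were called higher together in V+S-. RefSeq lists 4 starts for Igf2 and 1 each for Igfbp5 and Irs2, and of the Igf2 starts the one nearest the gene's 3′ end is printed. Each stretch reads 5′ to 3′ on the minus strand, and capitals mark matches to 6 short motifs on either strand.
Igf2, chr7:142657497-142657746: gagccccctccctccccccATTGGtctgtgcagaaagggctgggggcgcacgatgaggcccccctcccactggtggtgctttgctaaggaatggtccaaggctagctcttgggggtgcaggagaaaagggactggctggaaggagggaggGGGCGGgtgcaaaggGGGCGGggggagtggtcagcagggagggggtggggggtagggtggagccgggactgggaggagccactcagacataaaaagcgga
Igfbp5, chr1:72874866-72875115: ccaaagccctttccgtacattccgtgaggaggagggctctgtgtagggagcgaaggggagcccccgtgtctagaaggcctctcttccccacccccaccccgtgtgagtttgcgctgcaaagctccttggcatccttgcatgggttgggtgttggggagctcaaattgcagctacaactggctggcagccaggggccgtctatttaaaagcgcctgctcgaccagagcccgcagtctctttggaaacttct
Irs2, chr8:11008930-11009179: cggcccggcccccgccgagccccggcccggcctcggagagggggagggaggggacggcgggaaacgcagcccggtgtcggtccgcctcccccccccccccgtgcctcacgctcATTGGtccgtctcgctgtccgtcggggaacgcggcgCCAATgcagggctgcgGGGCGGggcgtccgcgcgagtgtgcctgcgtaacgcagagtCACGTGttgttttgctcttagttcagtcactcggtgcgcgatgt
The E-box was searched as CACGTG, and 6.02% of 32851 promoter stretches of the same length held it. The GC box was searched as GGGCGG, which 32.7% of those stretches held. The CCAAT box was searched by the 5 letters of its name, and 33.8% held it. The TATA box was searched as TATAAA (12.4% of stretches), the FOXO site, named for factors that insulin signalling restrains, as GTAAACA (3.17%), and the GATA site, bound by endoderm factors among others, as AGATAA (9.99%). The Irs2 stretch held an E-box at position -44, counted back from -1 at the base before the start, together with a GC box at -85 and CCAAT boxes at -137 and -101. The printed Igf2 stretch held GC boxes at -100 and -85 and a CCAAT box at -231, the most matches (3) of the 4 Igf2 starts, of which another held 1 GC box and the other two none. The Igfbp5 stretch held none of the 6 motifs, and the TATA box, FOXO site and GATA site were in none of the 6 stretches of the members. No matches overlapped. These are matches of letters, and no binding was measured.

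Sample RNA carried Cy3 and was hybridised against a Cy5-labelled universal mouse reference RNA, a pool from cell lines of many tissues, fibroblasts among them, without a dye swap. Levels are log2 ratios of sample to reference (log2 Cy3/Cy5), so 0 means the level of the reference pool. Levels of different genes are not comparable, since each is set against its own reference level. Differences between fractions were tested with limma over all 29484 probes and called at an adjusted p (Benjamini-Hochberg) under 0.05 with a change of more than 1.5-fold. The median Cy3 signal over background lay between 2.36 and 2.87 per sample and no spot was saturated.

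Igf2 was highest in V+S- and lowest in V-S-. The log2 ratios of the V-S+ samples were 0.10 (clone 5.1) and 0.72 (clone 16.1). Those of V+S+ were 0.56 and 1.25, with the clones in this order throughout. The V-S- samples had 0.04 and 0.39, and the V+S- samples 1.64 and 1.92. Both V+S- samples lay above all other samples, whereas the V+S+ samples overlapped with V-S+ and V-S+ overlapped with V-S-. The means were 0.41 ± 0.437 (SD, n = 2) for V-S+, 0.91 ± 0.489 for V+S+, 0.21 ± 0.244 for V-S- and 1.78 ± 0.196 for V+S-.

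Igfbp5 was below the reference in 7 of 8 samples and stood apart in V+S-. Its log2 ratios were -2.18 (clone 5.1) and -1.67 (clone 16.1) among the V-S+ samples. They were -1.90 and -0.83 for V+S+, and -1.94 and -1.75 for V-S-. The V+S- samples had -0.03 and 0.88, both above every sample of the other fractions, which overlapped with one another. The means were -1.93 ± 0.362 (SD, n = 2) for V-S+, -1.37 ± 0.756 for V+S+, -1.85 ± 0.133 for V-S- and 0.43 ± 0.645 for V+S-. The V+S+ samples of the 2 clones differed by 1.07, the widest gap between clones for any member in any fraction.

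Irs2 divided the samples by Venus. The V- samples had log2 ratios of -0.36 (clone 5.1) and -0.18 (clone 16.1) with SSEA-1, and of -0.54 and -0.37 without it. The V+ samples had 0.32 and 0.79 with SSEA-1, and 0.48 and 0.52 without it. All 4 V+ samples were above 0 and all 4 V- samples below it, and the V+S- values lay between those of the V+S+ clones. The means were -0.27 ± 0.126 (SD, n = 2) for V-S+, -0.46 ± 0.117 for V-S-, 0.55 ± 0.334 for V+S+ and 0.50 ± 0.0318 for V+S-.

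**Figure D1:**
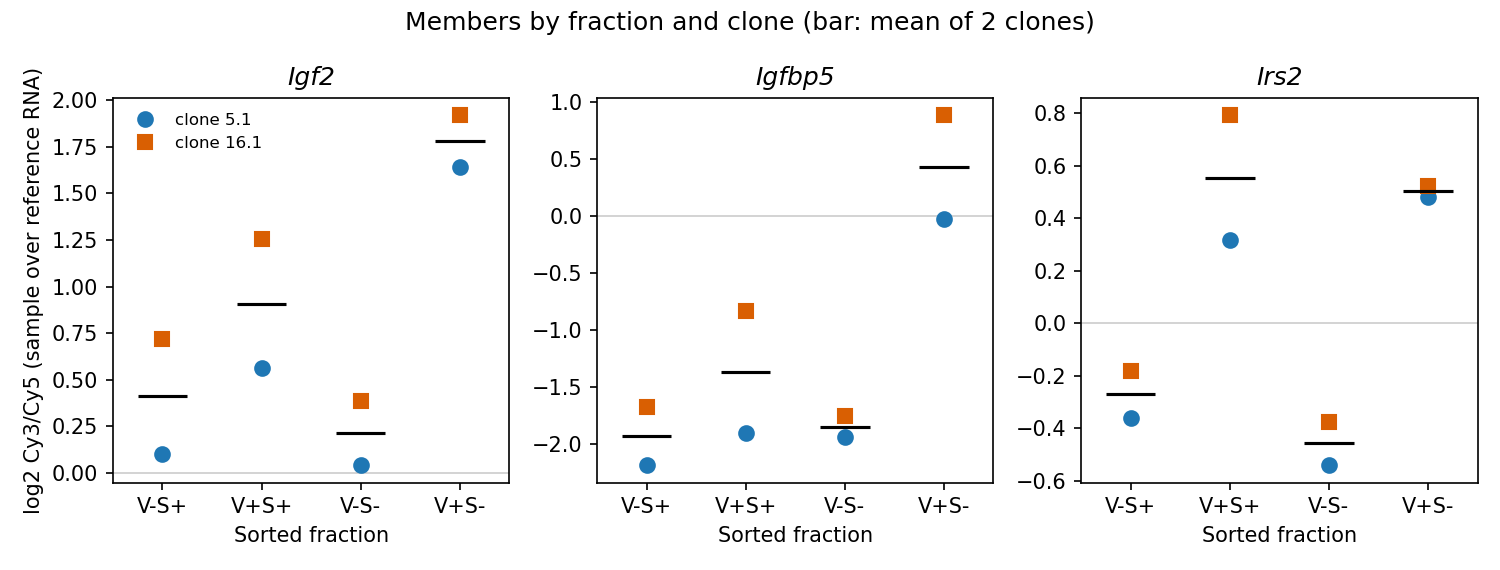
The log2 ratio of sample to reference (vertical axis, a separate scale for each gene) in the 4 sorted fractions, with a point for each clone and a bar for the mean of 2 clones. Igf2 and Igfbp5 are highest in both V+S- samples, while Irs2 is as high in V+S+ (0.32 and 0.79) as in V+S- (0.48 and 0.52).

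The comparison of V+S- with V-S+ sets the fraction that has lost SSEA-1 and expresses Hex-Venus against undifferentiated ES cells without Venus. All 3 members rose in it. The background share, of all tested probes called higher, was 5.73%, and among the named probes it was 48.1%. The share among named probes reflects how the table was chosen. Igf2 rose by 1.37 (SE 0.29, 2.58-fold, adjusted p = 0.0316) and by 1.54 and 1.20 within clones 5.1 and 16.1. Igfbp5 rose by 2.36 (SE 0.43, 5.12-fold, adjusted p = 0.023), and 0 of the 29484 probes tested had a larger increase. Irs2 rose by 0.77 (SE 0.16, 1.71-fold, adjusted p = 0.0296), and 1563 probes had a larger increase. No member was called without the clone 5.1 or clone 16.1 sample of V-S+ (0.00339% and 0.00678% of all probes called in either direction, beside 7% with all samples), with a V-S- sample left out (3.26%) or without the clone 16.1 sample of V+S- (0%), and only Igfbp5 was without the clone 5.1 sample of V+S- (4.05%). The deposited log10 values (1.57% of all probes called) and a test without moderation (1.14%) called none either, and the differences stayed above 0 in each of these fits. With clone as a replicate block, all 3 members were called higher (background 8.87%). The adjusted p in that fit was 0.000397 for Igf2, 0.000422 for Igfbp5 and 0.00162 for Irs2.

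Against V-S-, the other fraction without SSEA-1, all 3 members also rose in V+S-, where 6.3% of all probes and 53.1% of the named probes were called higher. Igf2 rose by 1.57 (SE 0.29, 2.96-fold, adjusted p = 0.0225), Igfbp5 by 2.27 (SE 0.43, 4.83-fold, adjusted p = 0.0225) and Irs2 by 0.96 (SE 0.16, 1.94-fold, adjusted p = 0.0186). This comparison shares its V+S- samples with the one before, so the values stand side by side and are not a repeat. When a V-S- sample or the clone 16.1 sample of V+S- was left out, no probe on the array was called (0%, beside 7.79% in either direction with all samples), and without the clone 5.1 sample of V+S- Igfbp5 was the only member called (5.52%). The deposited log10 values (2.58% of all probes called, adjusted p of the members 0.0551 to 0.0592) and a test without moderation (1.21%, 0.0701 to 0.0879) called no member here either. With clone as a replicate block, all 3 members were called higher here too (background 8.96%). The adjusted p in that fit was 0.000237 for Igf2, 0.000387 for Igfbp5 and 0.000703 for Irs2.

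The comparison of V+S+ with V-S+ sets cells with Venus against cells without it while SSEA-1 is kept. No member was called, and neither was any other probe (background 0%, with 5514 probes at an unadjusted p under 0.05). The difference was 0.50 for Igf2 (95% interval of the fit -0.22 to 1.21), 0.56 for Igfbp5 (-0.47 to 1.60) and 0.83 for Irs2 (0.44 to 1.21, 1.77-fold, adjusted p = 0.159). All were positive in both clones, at 0.46 and 0.53 for Igf2, 0.28 and 0.84 for Igfbp5, and 0.68 and 0.97 for Irs2. Leaving out the clone 16.1 sample of V+S+ gave 0.15 for Igf2, 0.026 for Igfbp5 and 0.59 for Irs2, and leaving out its clone 5.1 sample 0.84, 1.096 and 1.06. Leaving out the clone 5.1 sample of V-S+ gave 0.19 and 0.31 for Igf2 and Igfbp5, and its clone 16.1 sample 0.81 and 0.82. These fits had no clone term. Each set 1 clone of a fraction against the mean of both clones of the other, so the difference between clones enters these values. With clone as a replicate block, Irs2 was called higher (adjusted p = 0.0047, background 3.87%). In that fit, Igf2 had an adjusted p of 0.0228 with a change under 1.5-fold, and Igfbp5 an adjusted p of 0.0829.

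V-S- and V-S+ were sorted apart by SSEA-1 among cells without Venus. No member and no other probe was called (limma, background 0%, 834 probes at an unadjusted p under 0.05). The difference was -0.20 for Igf2 (95% interval -0.91 to 0.52), 0.08 for Igfbp5 (-0.95 to 1.12) and -0.19 for Irs2 (-0.57 to 0.20). The clones went opposite ways for Igfbp5, at 0.24 and -0.08.

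V+S- against V+S+ concerns the loss of SSEA-1 among cells with Venus. No probe was called without the block (background 0%, 4429 probes at an unadjusted p under 0.05), and the differences were 0.87 for Igf2 (95% interval 0.16 to 1.58), 1.79 for Igfbp5 (0.76 to 2.83) and -0.05 for Irs2 (-0.44 to 0.33). For Igfbp5, 0 of the 29484 probes had a larger increase. With clone as a replicate block, Igf2 (adjusted p = 0.00973) and Igfbp5 (adjusted p = 0.008) were called higher and Irs2 was not (adjusted p = 0.778), at a background of 1.75%. Without the clone 5.1 sample of V+S+ the difference of Igf2 was 0.53, under 1.5-fold, and without its clone 16.1 sample 1.22.

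On the linear scale of mean ratios, V+S+ lay 25.9% of the way from V-S+ to V+S- for Igf2 and 11.5% for Igfbp5, against 109% for Irs2. Within clones 5.1 and 16.1 the share was 19.7% and 34.5% for Igf2, 6.25% and 16.2% for Igfbp5, and 76% and 152% for Irs2, so each share varied by 1.5-fold or more with the clone. No test compared the members with each other. The test of whether the Venus effect differed between S- and S+ cells called no member without the block (background 0%, 2340 probes at an unadjusted p under 0.05). That difference was 1.07 for Igf2 (SE 0.42, adjusted p = 0.614), 1.71 for Igfbp5 (SE 0.61, adjusted p = 0.599) and 0.13 for Irs2 (SE 0.23, adjusted p = 0.953). With clone as a replicate block, Igf2 was called (adjusted p = 0.0438, background 0.861%), and Igfbp5 had an adjusted p of 0.0512.

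**Figure D2:**
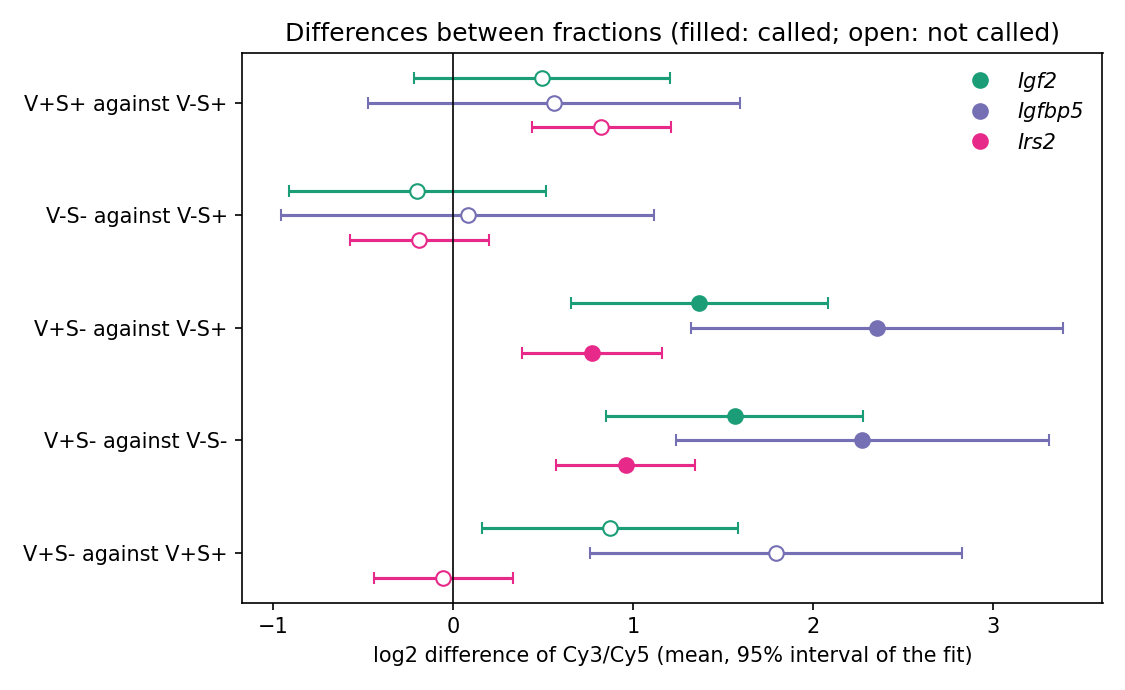
Differences of the log2 ratio between pairs of fractions for each member (horizontal axis), with bars for the 95% interval of the fit with fraction as the only term and filled points for called differences. Filled points occur in both comparisons of V+S- with a V- fraction, and Igfbp5 has the largest differences there, at 2.36 and 2.27.

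Both channels were examined for each member, because a ratio can move through the reference. The Cy3 signal of Igf2 ran from 2294 to 13750 and its Cy5 signal from 2954 to 4038. For Igfbp5 the Cy3 signal ran from 200.2 to 2154 and the Cy5 signal from 942.6 to 1306. For Irs2 they ran from 3647 to 12340 and from 6584 to 8127. Relative to the array, the log2 Cy3 signal spanned 2.38, 3.30 and 1.62 for Igf2, Igfbp5 and Irs2, and the log2 Cy5 signal 0.35, 0.32 and 0.27. The spread lay in the sample channel. All 3 probes were well above background in all 16 scans, though Igfbp5 was the dimmest, at 4.47 times background in the lowest sample. Repeat scans of an array differed by at most 0.16 for any member.

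**Figure D3:**
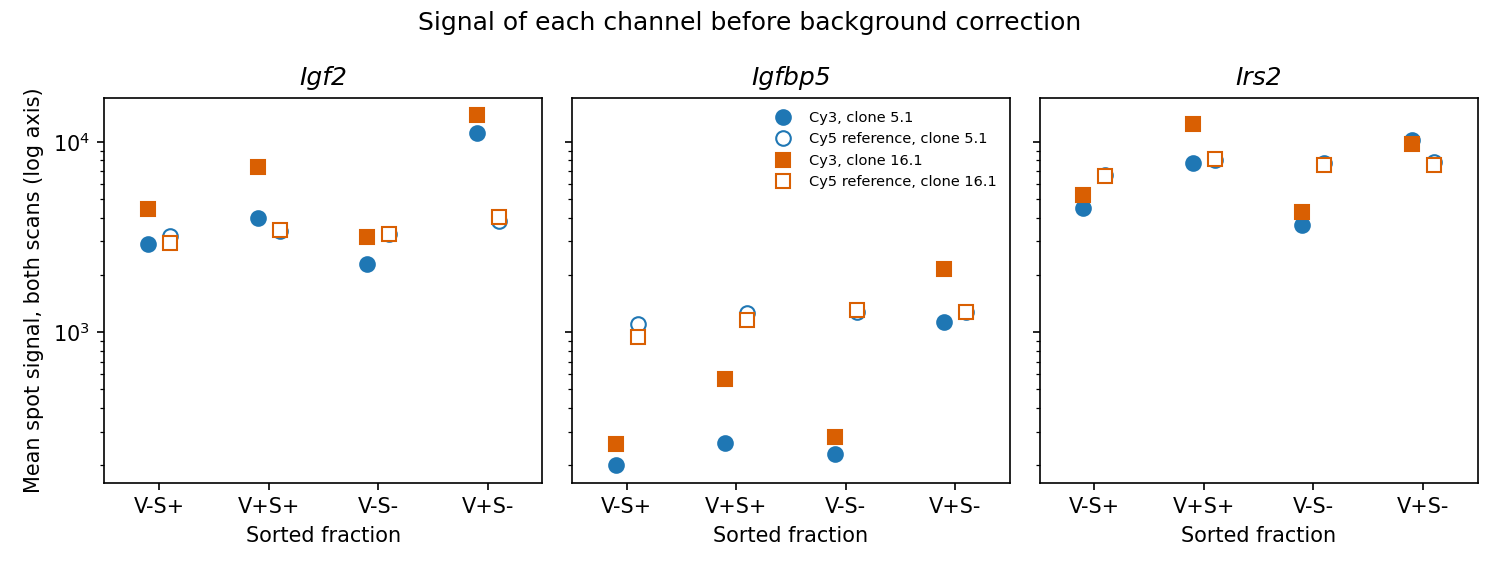
Mean spot signal before background correction on a log axis, for the sample (Cy3, filled) and the reference (Cy5, open) in each fraction and clone. The reference points of each gene stay within a narrow band (942.6 to 1306 for Igfbp5), while the sample points of Igfbp5 run from 200.2 to 2154.

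Clone 16.1 gave higher ratios than clone 5.1 for all 3 members in all 4 fractions. With fraction and clone in the model, Igfbp5 was called higher in clone 16.1 (0.67, SE 0.14, 1.59-fold, adjusted p = 0.016), at a background of 1.39%. Igf2 differed by 0.48 (SE 0.08, adjusted p = 0.0073), which is 1.40-fold and under the fold threshold, and Irs2 by 0.22 (SE 0.07, adjusted p = 0.0662). The call of Igfbp5 was lost without any 1 of the V+S+ samples (1.35% of all probes called in either direction, beside 2.14% with all samples) or V+S- samples (1.74%). It was also lost with processed signals (adjusted p = 0.051, 4.53%), the deposited log10 values (0.0911, 3.02%) and a test without moderation (0.149, 0.00678%). For Igf2 the clones were 0.62 apart among V-S+ samples, 0.69 for V+S+, 0.35 for V-S- and 0.28 for V+S-. For Irs2 the gaps were 0.18, 0.47, 0.17 and 0.04 by fraction, in this order.

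A wider list of 47 genes of the axis was read, of which 9 had a named probe, the members and 6 others. These were also named through the selected table. The 6 others were the receptors Igf1r and Insr, the binding protein Igfbp7, the adaptor Grb10 and the RNAs Igf2as and Air from imprinted loci. In V+S- against V-S+, 3 of the 6 were called higher (Igf1r, Igfbp7 and Air) and 0 lower. Of all probes 5.73%, and of the named probes 48.1%, were called higher. The differences of all 6 were above 0. The median over the 6 was 0.94, beside 0.67 over the named probes and 0.01 over all probes tested. With clone as a replicate block all 6 were called higher (background 8.87%). Against V-S-, all 6 rose in V+S- (6.3% of all probes, 53.1% of the named ones), and their median was 1.08, beside 0.69 over the named probes. None of the 6 was called in the fits named above in which no probe on the array was, without a V-S- sample in this comparison or without the clone 16.1 sample of V+S- in either. Between V+S+ and V-S+, none of the 6 was called (background 0%) and their values ran from 0.20 to 0.90. The block called 3 of them there (Igf1r, Grb10 and Igf2as, background 3.87%). Between V+S- and V+S+, 0 of the 6 were called without the block and 2 with it (Igfbp7 and Air, background 1.75%). Grb10 was lower there, by -0.14, and was not called. For the difference of the Venus effect between S- and S+, the block called Igf1r and Air (background 0.861%), and 0 were called without it.

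Igf1r, the main signalling receptor for IGFs, rose by 1.29 in V+S- against V-S+ (SE 0.27, 2.44-fold, adjusted p = 0.0296), from a mean log2 ratio of -1.38 to -0.09. Insr, the insulin receptor, was higher by 0.69 in that comparison and was called only with the block (adjusted p = 0.0643 without it and 0.000897 with it). It rose by 0.85 against V-S- (adjusted p = 0.0379). Igfbp7, a secreted protein related to the IGF-binding proteins, rose by 1.09 (SE 0.18, adjusted p = 0.0188) from -3.08 to -1.99, and V+S+ lay 13% of the way (10.6% and 14.2% within the clones). Grb10, an imprinted adaptor that restrains insulin and IGF receptor signalling, followed the order of Irs2: its difference from V-S+ was 0.90 for V+S+ and 0.76 for V+S-, both called with the block (adjusted p = 0.00258 and 0.000649) and neither without it. V+S+ lay 125% of the way.

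Igf2as is transcribed antisense to Igf2 from the same locus. The V-S+ samples of clones 5.1 and 16.1 had log2 ratios of 0.65 and 0.88, and the V+S- samples 1.57 and 1.61. It was higher by 0.83 in V+S- against V-S+ (adjusted p = 0.0547, not called, and 0.00529 with the block, called) and rose by 0.99 against V-S- (adjusted p = 0.0352). Air, the noncoding RNA antisense to the IGF2 receptor gene, rose by 1.06 in V+S- against V-S+ (SE 0.27, adjusted p = 0.0439). Igf1, Igf2r, H19, Irs1 and the other genes of the list had no probe among the named ones used and were not analysed here.

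**Figure D4:**
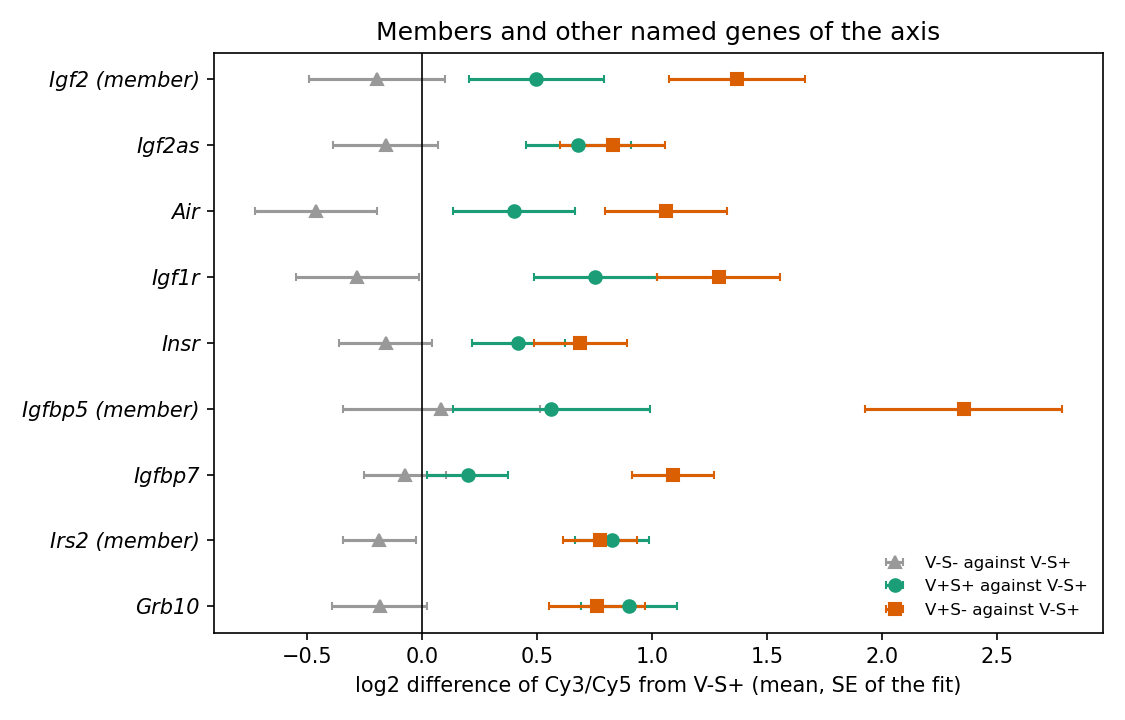
Difference of the log2 ratio from V-S+ for the 3 members and the 6 other named genes of the axis, with the SE of the fit. All V+S- values lie right of 0, from 0.69 for Insr to 2.36 for Igfbp5, and the V+S+ values of Irs2 and Grb10 lie at or beyond their V+S- values.

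Over the 8 samples, the ratios of Igf2 and Igfbp5 correlated at r = 0.959, Igf2 and Irs2 at 0.842, and Igfbp5 and Irs2 at 0.715. These describe 4 fractions in 2 clones, and all points share the fraction and slide structure. Set against the medians over other named probes given below, 0.959 lay above those of both genes. The value of 0.842 lay below the median of Igf2 and above that of Irs2, and 0.715 lay below both. The named probes most like Igf2 were Ikbke, Foxq1, Masp1, Runx1 and Myl6 (r of 0.993 to 0.994), where the median over 1997 other named probes was 0.871. For Igfbp5 they were Srr, Scap, Ch25h, Postn and Vim (0.995 to 0.998, median 0.818), and for Irs2 Cldn6, Rras2, Tmem184a, Dstn and Pde1a (0.993 to 0.994, median 0.796).

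Marker lists of cell states were read beside the members, through the same table, whose genes were selected for differences among these arrays. That these lists differ between fractions is therefore no independent evidence on cell states. The mean log2 ratio over 8 named primitive endoderm markers of 20 listed (Gata6, Sox7, Dab2, Lamb1-1, Col4a1, Col4a2, Afp and Lrp2) ran from -1.46 to -1.30 for V-S+ samples, from -1.13 to -0.745 for V+S+, from -1.48 to -1.42 for V-S- and from -0.311 to -0.281 for V+S-. Over 4 named ES cell markers of 12 (Nanog, Pou5f1, Dppa3 and Tdgf1) the ranges, with the fractions in this order, were 1.73 to 1.80, 1.07 to 1.56, 1.59 to 1.67, and 0.588 to 0.781. Over 5 named markers of fibroblasts or other mesenchymal cells of 13 (Col1a2, Col5a2, Acta2, Tagln and Postn) they were -2.79 to -2.35, -2.41 to -1.70, -2.94 to -2.66, and -1.38 to -0.851. In both V+ fractions the endoderm and ES lists lay outside their range in the V- fractions, and in V+S- the mesenchymal list did too. Their part in the members' values was not tested. In sorted populations, a change in the share of expressing cells and a change in RNA per cell cannot be told apart.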

How the data were processed

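The authors deposited 16 scanner files, 2 repeat scans of each of 8 two-colour arrays, with spot intensity in both channels before normalization (Agilent Feature Extraction 9.5.1.1, per the file headers), and their own log10 values of 25164 probes. The array design number in the headers differs from that in the study's methods. Mean signals were corrected for median local background by normexp (offset 50) and normalized by loess in limma 3.58.1 (R 4.3.3). Control and outlier-flagged spots were left out and scans averaged. Of 42006 probes, 29484 were tested, those whose Cy3 signal stood well above background throughout 1 or more fractions (lmFit and eBayes, fraction only, all samples). Probe names came from the first 1998 rows of the study's table, and its later rows were not read. The members, lists and tests were chosen with earlier results of these data known. Genes were named as members, as the 5 probes most correlated with each member, as cell state markers, or as members of the pathway list. A further gene considered for that list is not reported here. Samples of a clone come from 1 cell line, so clone pairs them (r of 0.59 to 0.81 between deviations across probes), and the block was run as well. Each fraction's 2 arrays limit the precision. Promoters and coordinates are RefSeq, GRCm38.p6. Alternatives covered background, normalization, filter, scans, the deposited log10 values, the block, moderation and each sample left out.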

Additional observations from a re-analysis of the deposited data

Results flagged for a closer look

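In 2 cases the clones went opposite ways for a member, and the difference between the clones was not tested. For V-S- against V-S+, Igfbp5 had a log2 difference of 0.24 (clone 5.1) and -0.08 (clone 16.1). For V+S- against V+S+, Irs2 had one of 0.16 (clone 5.1) and -0.27 (clone 16.1). Neither comparison was called for these genes.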

How the results depend on the processing

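With clone as a replicate block, which pairs the samples, members called went from 0 to 1 in V+S+ against V-S+ (Irs2), from 0 to 2 in V+S- against V+S+ (Igf2 and Igfbp5) and from 0 to 1 for the difference of the Venus effect (Igf2). The share of all probes called in either direction went from 0% to 5.62%, 2.11% and 0.861% in these comparisons. The block changed no other call of a member. The authors' log10 values and the ordinary test without moderation each gave 0 called members in V+S- against V-S+, V+S- against V-S- and the clone comparison, and processed signals gave 0 in the clone comparison. The share of all probes called there was 1.57%, 2.58% and 3.02% with the authors' values, 1.14%, 1.21% and 0.00678% without moderation, and 4.53% with processed signals, beside 7%, 7.79% and 2.14% as reported. With the authors' values, adjusted p for the 3 members was between 0.0586 and 0.0748 in V+S- against V-S+ and between 0.0551 and 0.0592 in V+S- against V-S-. Leaving out 1 sample at a time, called members ranged from 0 to 3 in each V+S- comparison with a V- fraction, and from 0 to 1 for clones, while the share of all probes called ranged from 0% to 8.97% against V-S+, 0% to 9.64% against V-S- and 1.35% to 2.91% for clones. The causes were not tested. V+S+ against V-S+ ranged from 0.15 to 0.84 for Igf2, 0.026 to 1.096 for Igfbp5 and 0.59 to 1.06 for Irs2, with these ends set by a V+S+ sample left out. Over all alternatives the difference in V+S- against V-S+ stayed between 1.06 and 1.68 for Igf2, 1.90 and 2.81 for Igfbp5, and 0.68 and 0.86 for Irs2. Signs turned only in differences that were not called. Median centring gave Igfbp5 a difference of -0.072 for V-S- against V-S+ and Irs2 one of 0.053 for V+S- against V+S+. With 1 sample left out, V-S- against V-S+ ranged from -0.17 to 0.34 for Igfbp5 and from -0.51 to 0.11 for Igf2, and all these ends came without a V-S+ sample. Leaving out the V-S- sample from clone 16.1 gave Igfbp5 -0.012. V+S- against V+S+ ranged from -0.29 to 0.18 for Irs2, from 0.53 to 1.22 for Igf2 and from 1.26 to 2.33 for Igfbp5, with these ends set by a V+S+ sample left out. The Irs2 difference of the Venus effect was -0.0070 with the Cy3 channel alone and ranged from -0.10 to 0.37 with 1 sample left out. A fit without 1 sample leaves a fraction with a lone array, whose spread is taken from the others. These fits had no clone term, so a lone array of 1 clone was set against the mean of both clones. The difference between clones therefore enters the ranges with 1 sample left out.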
